A study of Rattus norvegicus with 2 samples.

Results

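The regions described here are the 1575 stretches below 100 bases in a table of 8512 m6A-enriched regions (18.5% of the table), mapped in cultured hippocampal neurons exposed to lead acetate (PbAc). The neurons were prepared from Sprague-Dawley rats at P0, the day of birth. They were chosen by their listed length alone, and they carried 1155 of the 4212 gene names in the table (27.4%). The other 6937 regions, of 100 bases or more, are called longer regions. The data came from 1 immunoprecipitate (IP), made with an antibody against m6A, and 1 input library, the RNA before the pull-down. Both were from cultures that had received AraC, an inhibitor of dividing cells, on day 7 in vitro and PbAc for 48 h from day 12. On the dose the sources differed, with 5 mM in the labels and 5 µM in the design text, and exposure ended on day 13 or day 14. Unexposed neurons are not analysed here, which leaves every value without a comparison for lead. Each of the IP and input groups was 1 library, so no value has a replicate error and none was tested. Depth is unknown, since the table holds no counts.

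N6-methyladenosine (m6A) is the most abundant internal modification of messenger RNA. It is written in the nucleus by a complex around METTL3 and METTL14, read by YTH-domain proteins and removed by demethylases. It is known to lie mostly in long internal exons and around stop codons, and in neurons it takes part in the transport, translation and decay of transcripts. In the method used here, RNA is broken into fragments, pulled down with the antibody and sequenced beside the input, and a peak caller lists the regions where the IP stands above the background. Fold enrichment is that linear ratio, and the score is 10 times the −log10 of the peak caller's p. Both are the authors' values for each region. Region borders, fold and p all came from the same comparison of IP with input, so differences between short and longer regions are given as a description. No sequence of the table's genome build was used here, so no region sequence is printed.

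The lengths themselves had a pattern. The short regions ranged from 1 to 99 bases with a median of 78 (quartiles 62 and 90), whereas the longer regions had a median of 183 and reached 7383. Lengths divisible by 3 made up 669 of the 1575 short regions (42.5%), and the other remainders 29.8% and 27.7%, where an even spread would put 33.3% in each. Among regions of 81 to 99 bases the share was 46.5%, among those of 41 to 80 bases 39.5%, and among the 92 regions of 40 bases or less 34.8%. Longer regions had 39.5%. The class of 81 to 99 bases begins and ends on a multiple of 3. An even spread would thus put slightly more than 33.3% there and slightly less in the classes below it. The 6 commonest short lengths, 96, 84, 93, 99, 81 and 90 bases, were all multiples of 3. The share was 36.5% among short regions with a p of at most 1e-10 and 43.1% among those with a p above 0.05. The plot of region lengths shows these steps as tall bars at lengths divisible by 3 on both sides of the limit. Whether the ends of these regions coincide with exon ends was not tested.

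**Figure D1:**
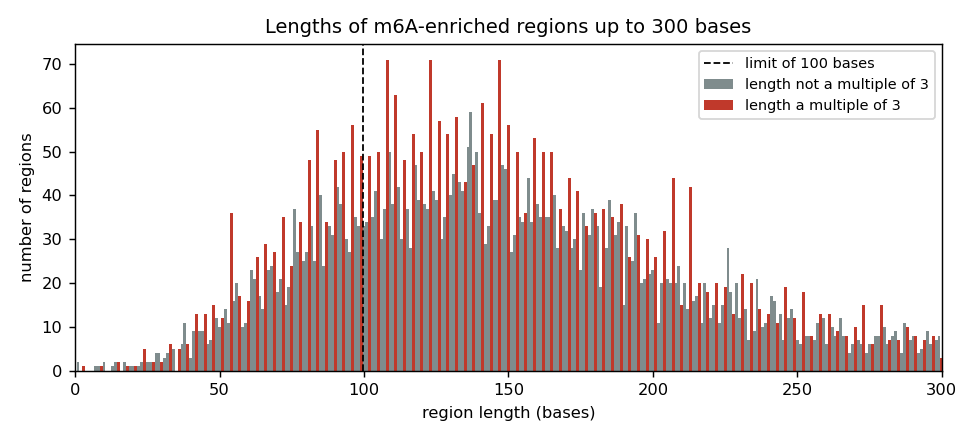
Number of regions (vertical axis) at each region length in bases (horizontal axis, up to 300), in red where the length is a multiple of 3 and in grey otherwise, with the 100-base limit dashed. The tallest bar below the limit is at 96 bases, with 56 regions, followed by 84 bases with 55.

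Collagen genes, chosen after their rows had been seen, were set beside all short regions by length. Fibrillar collagens are built of a repeated glycine triplet, and the exons that encode their triple helix are known to be commonly 54 or 108 bases long, multiples of the 9 bases of 1 triplet. The table held 47 regions on 13 collagen genes, of which 28 on 10 genes were short (59.6%). Among the 28 short regions, 10 were exactly 54 bases and 5 exactly 63 bases, and 19 (67.9%) were multiples of 9 bases, against 16.8% of all short regions. Only Col11a1 and Col5a2 of the 10 genes are fibrillar, with 6 and 1 of the short regions, all of 54 bases. The remaining short regions lay in collagens of other types. Of these 28, 4 lay in Col23a1, whose lengths of 63 and 87 bases each stood at a pair of loci 2093326 and 2093308 bases apart, so that 2 of the 5 regions of 63 bases may be repeats. Among the 19 longer collagen regions, 8 were exactly 108 bases. Col11a1, a fibrillar collagen, had 9 regions, 6 of 54 bases and 3 of 108 bases. The fold enrichments of its 54-base regions lay between 2.87 and 6.37 and those of its 108-base regions between 5.63 and 10.71. Only 2 of the 6 regions of 54 bases had a p of at most 0.05. Col4a1, a basement membrane collagen, had 4 regions, all short, between 5.36 and 6.31. The strongest short collagen region lay in Col6a2, at 11.6 with a score of 820.09. Of the 28 short regions, 4 (14.3%) had a p of at most 1e-10, a limit passed by 24.5% of all short regions and 32.9% of the whole table.

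Some related genes had a short region of the same length. They too were picked after their rows had been seen, and how often unrelated genes share a length was not tested. Camk2b and Camk2g, subunits of the calcium/calmodulin-dependent kinase of synapses, each had a region of 49 bases, at 13.39 and 11.94. Erc1 and Erc2, scaffolds of the presynaptic active zone, each had 1 of 75 bases, at 4.49 and 3.77. In both of these pairs the equal lengths came with folds of similar size, though these are single values without an error.

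Some gene names stood at several loci with the same set of lengths, a pattern picked out after the rows had been seen. Of 1276 short regions in genes with more than 1 region, 79 (6.19%) in 30 genes had the length of another region of that gene. Among longer regions in such genes the share was 4.23%. Lengths below 100 bases have fewer possible values than those above. How often equal lengths would arise by coincidence in each kind was not tested. The 79 formed 42 pairs of consecutive equal lengths, and 21 of these pairs, in 15 genes, lay over 50000 bases apart or on separate chromosomes. Pdcd5, the programmed cell death 5 gene, had short regions of 92, 62 and 38 bases on chromosome 1, and all 3 recurred exactly 789156 bases further on. Their folds were 13.76, 11.05 and 7.59 at the first locus and 17.89, 11.94 and 7.63 at the second, so the order within the locus was the same. Cttn, which encodes the actin-binding protein cortactin, had regions of 56, 87 and 48 bases at loci 2300397, 2300395 and 2300395 bases apart, with folds of 5.88, 3.52 and 8.58 and of 5.52, 2.93 and 8.51. Fam50a had a 77-base region on chromosome 1 at 19.77 and on chromosome 4 at 19.31. Anp32a, an acidic nuclear histone chaperone gene, had a 98-base region at 38.11 on chromosome 8, where the RefSeq table places the gene, and at 24.25 on chromosome 3. The counts of regions for Cttn and Pdcd5, and the folds of Anp32a and Fam50a, are therefore uncertain. Whether such loci share sequence or reads was not tested.

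Short regions were slightly weaker than longer ones. Their fold enrichment ran from 2.05 to 68.71 with a median of 5.5 (quartiles 4.095 and 7.71), against a median of 6.02 (quartiles 4.46 and 8.64) for longer regions. A fold of 10 or more was reached by 220 short regions (14.0%), against 17.3% of the whole table. A fold of 30 or more was reached by 11 of the 1575 short regions and by 96 of the 8512 regions in the table. The quartiles overlapped widely, so a region's length said little about its fold. The gap in the p-values was wider: 1067 short regions (67.7%) passed a p of 0.05, against 71.8% of the table, 612 (38.9%) passed 1e-5, against 45.8%, and 386 (24.5%) passed 1e-10, against 32.9%. Nothing is read from these shares about the short regions, since p and length came from the same comparison. Median scores were 29.51 for short and 43.71 for longer regions. At equal fold the scores were alike for weak regions and lower in short regions for strong ones: between 4-fold and 6-fold the medians were 18.91 and 18.785, between 6-fold and 10-fold 72.42 and 93.445, and between 10-fold and 20-fold 382.94 and 503.44. A score of 3100, shared by 168 regions of the table, was held by 12 short regions. Among regions with a p of at most 1e-10, the median fold was 10.43 for short and 10.04 for longer regions, so the direction of the small difference in fold turned under that limit.

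There was no step at 100 bases. Median folds were 5.33 in the class of 21 to 40 bases, 5.685 from 41 to 60, 5.445 from 61 to 80 and 5.5 from 81 to 99, and the class of 100 to 120 bases stood at 5.49. They then rose to 5.7 from 121 to 160 bases, 6.04 from 161 to 200 and 6.45 from 201 to 300, and were lower again at 6.285 above 300 and up to 400, 6.185 up to 800 and 6.15 above 800. Below 21 bases there were 18 regions, with a median of 5.905. The rise therefore lay within the longer regions, above the limit that defines the short ones. At the limit itself, 49 regions of 99 bases had a median of 5.36 (range 2.33 to 20.32) and 33 regions of 100 bases a median of 5.08 (range 2.75 to 11.95). The highest of the 99-base regions lay in Phf20 (20.32), Eif5b, a translation initiation factor gene (17.09), and March1 (14.46), and the highest of the 100-base regions in the chromatin remodeller gene Chd4 (11.95), the SNARE gene Stx1a (11.27) and Iqgap2 (10.99).

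**Figure D2:**
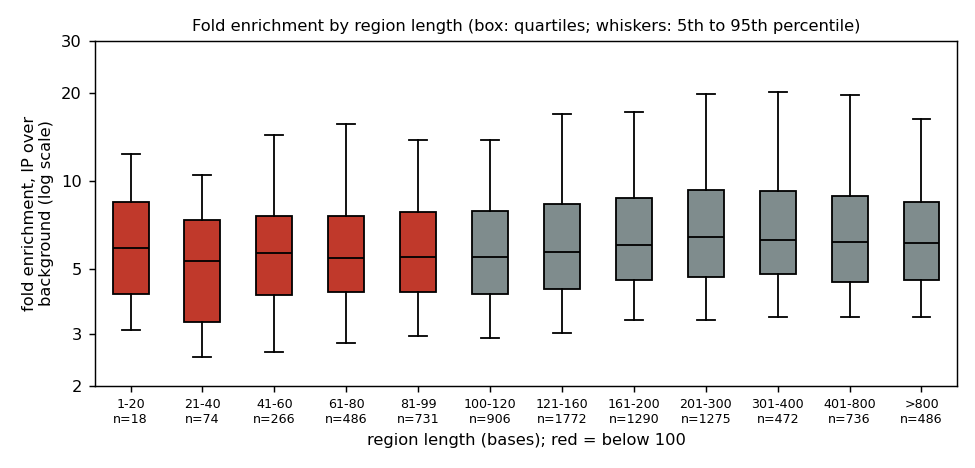
Fold enrichment of IP over background (log axis) by region length class in bases, with boxes at the quartiles, a line at the median and whiskers at the 5th and 95th percentiles, and n regions per class. The red classes below 100 bases have medians from 5.33 to 5.905, and the grey classes rise from 5.49 at 100 to 120 bases to 6.45 at 201 to 300 bases, then stand at 6.15 above 800 bases.

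The shortest entries were single bases, in Extl1 on chromosome 5 (fold 4.67, score 7.72) and in the myosin gene Myo19 on chromosome 10 (fold 5.22, score 3.26). A 3-base region stood in Rhd, which encodes a blood group protein (8.17). An 8-base region stood in Pitpna, a phosphatidylinositol transfer protein gene (8.58), and a 9-base region in Jmy, an actin nucleator gene (3.91). The provisional gene RGD1566270 had a region of 7 bases at 10.93 with a score of 434.15. Of these 6, the Rhd, Pitpna and RGD1566270 regions had a p below 0.05.

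The 10 strongest short regions had folds from 35.58 to 68.71. Lrrc4b, a postsynaptic adhesion protein gene, had a 45-base region at bases 101513712 to 101513756 of chromosome 1 with a fold of 68.71. Its other region, of 2346 bases and 18184 bases away, stood at 5.94. Pdap1 had a 92-base region at 50.2 (bases 13313096 to 13313187 of chromosome 12), and its 3 longer regions were similarly strong, from 40.63 to 57.33. Myo6, an unconventional myosin that moves towards the minus ends of actin filaments, had 79 bases at 47.34 (bases 87247113 to 87247191 of chromosome 8) among longer regions from 3.46 to 33.73. These 3 genes show the short region far above, level with and at the top of its neighbours.

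Further down the order came Scaf11, a splicing-associated factor gene, whose single region of 82 bases stood at 42.62. Chmp3, a subunit of the ESCRT-III membrane-cutting complex, had short regions at 40.42 and 19.83 and longer ones from 12.45 to 18.06. Anp32b, a relative of Anp32a, had 70 bases at 39.79 beside a 125-base region at 61.33. Atp2b1, a plasma membrane calcium pump, had a region of 33 bases at 37.4, 74844 bases from the nearest other region, while its 39-base region stood at 7.44. Supt5h, a transcription elongation factor, had 84 bases at 35.82 and Dip2c 72 bases at 35.58. The 98-base region of Anp32a on chromosome 8, at 38.11, completes the 10. In 9 of the 10 genes a longer region was listed too, and in 7 of these the short one stood above every longer one, the exceptions being Pdap1 and Anp32b. They were chosen for their high fold, so this order is a description. The scores of 7 stood at 3100, and the others were 2466.45 (Scaf11), 2149.22 (Chmp3) and 2650.29 (Dip2c).

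Within genes, however, the short region was usually the weaker. Both kinds were listed in 804 genes. The median fold of the short regions was below that of the longer regions in 551 of them (68.5%), above in 252 and equal in 1. The ratio of these medians had a median of 0.812 (quartiles 0.595 and 1.105). A short region held the highest fold of its gene in 218 of the 804 (27.1%), whereas short regions made up 36.6% of the regions of these genes. Comparing each region with its nearest neighbour in the same gene gave the same direction: 771 of 1275 short regions (60.5%) were below their neighbour, against 47.6% of longer regions. Across regions, fold was related to the neighbour's fold with a rank correlation of 0.335 for the 1275 short and 0.322 for the 4903 longer regions. Neighbours share a transcript, and all regions share the same libraries.

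Short regions were found more often in genes with several regions. They made up 12.9% of the regions of the 2320 genes with 1 region, 17.5% in the 898 genes with 2, 22.7% in the 802 genes with 3 to 5, and 20.3% in the 192 genes with 6 or more. Of the short regions, 61.1% lay in genes with 3 or more regions. Genes with 3 to 5 regions held 41.5% of the short and 32.1% of the longer regions. Genes with 6 or more held 19.6% and 17.4%. Genes with a short region had 3.08 regions on average, and genes without had 1.62. A gene with more regions has more chances of a short one, so the shares per class are the fairer reading. Most genes with a short region had a single one (883 of 1155, 76.5%), 189 had 2 and 83 had 3 or more. A lone short region, the only entry of its gene, was weaker still: the 299 such regions had a median fold of 5.26, and 46 of them (15.4%) reached a p of at most 1e-10. Lone longer regions stood at 5.52 and 26.2%.

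The next region of the same gene was about as far from a short as from a longer region. A neighbour on the same chromosome existed for 1275 short regions (81.0%) and 4903 longer ones (70.7%). The median distance, edge to edge, was 3332 bases for short (quartiles 1525 and 9450) and 3563 for longer regions (quartiles 1676.5 and 12135). Very close neighbours were rare: 1 short region had another within 200 bases, 9 within 500 and 131 (10.3%) within 1000, against 10.7% of longer regions within 1000. Short regions were thus seldom close beside another region on the chromosome. These distances include any introns between the regions, so spacing along the RNA was not measured. In genes with 2 regions the medians were 6284.5 and 6792.5 bases, in genes with 3 to 5 regions 3186 and 3547, and in genes with 6 or more 1888 and 2407, the short first in each pair. The neighbour of a short region was itself short in 423 cases (33.2%), and that of a longer region in 942 (19.2%). The closest pair of short regions lay in Rint1, 403 bases apart, with folds of 2.61 and 3.88. The next was in Brf1, a subunit of the RNA polymerase III initiation factor, 623 bases apart at 13.04 and 4.39.

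**Figure D3:**
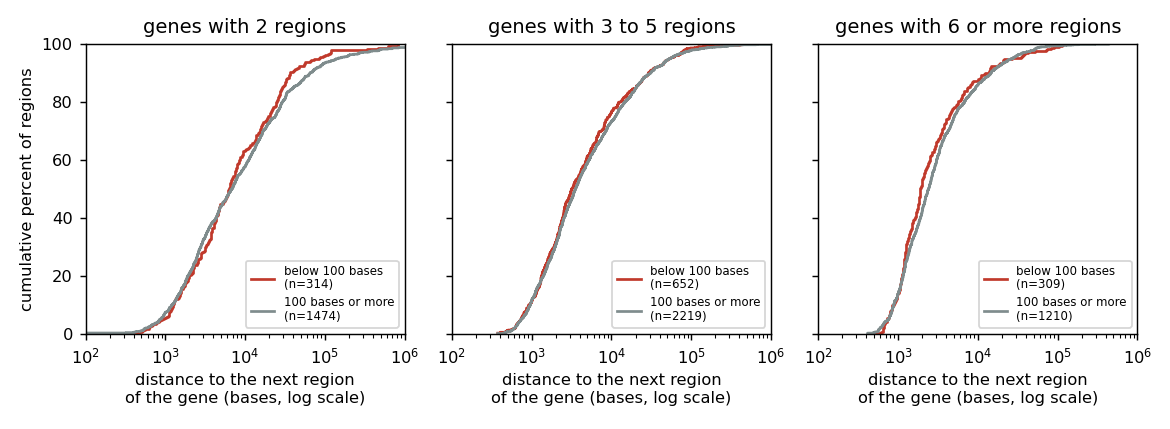
Cumulative percent of regions (vertical axis) by distance in bases along the chromosome to the next region of the same gene (log axis), for genes with 2, 3 to 5, and 6 or more regions. The red curves (below 100 bases) and grey curves (100 bases or more) run close together, with medians of 1888 and 2407 bases in the right panel.

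Fold had no steady order by that distance. Short regions with a neighbour within 1000 bases had a median of 5.14, those between 1000 and 5000 bases away 5.7, and those further away 5.62. The corresponding medians of longer regions were 6.4, 6.615 and 5.745. In genes with 3 or more regions on a chromosome, 554 of 2398 inner regions were short (23.1%) and 403 of 1978 outermost ones (20.4%), and in genes with 6 or more the shares were 21.7% and 16.0%. The short share by chromosome ran from 15.9% on X to 21.3% on chromosome 10.

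The 10 genes with the most short regions had between 5 and 11 each. Ktn1 encodes kinectin, a membrane receptor for the motor kinesin, and had 11 short regions among 18. Their folds ran from 2.26 to 21.14 with a median of 7.26, against 8.17 for its 7 longer regions, and the gene's highest value was a short region of 88 bases. Along rising coordinates, 10 of these 11 lay beyond the last longer region, and 3 of them were 91 bases long at 7.33, 7.26 and 7.14. Ift74, a subunit of the intraflagellar transport machinery of cilia, had 6 short among 12 regions, from 3.5 to 6.86, all below its highest longer region at 19.96. Dnmt1, the maintenance DNA methyltransferase, had 6 short among 8, from 2.68 to 5.49. Tlk2, a kinase of chromatin assembly, had 6 among 8, from 2.33 to 10.09. Cast, which encodes the calpain inhibitor calpastatin, also had 6 among 8, from 2.61 to 5, and all 6 lengths were multiples of 3.

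Of the remaining genes, Pdcd5 had 6 short regions with a median of 11.495, the 3 at each locus described above. Gspt1, a translation termination factor gene, had 5 among 9, from 2.51 to 12.35, a count that is uncertain because its lengths of 34 and 78 bases recur 98331 and 98332 bases further on. Fam133b had 6 regions, all short, from 4.75 to 11.19, and each had a p below 0.05. Cttn had 7 among 11 over its 2 loci, from 2.93 to 8.58, none with a p of at most 1e-10. Ktn1 and Pdcd5 thus reached high scores in short regions while Dnmt1, Cast, Cttn and Col11a1 had none past that limit.

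**Figure D4:**
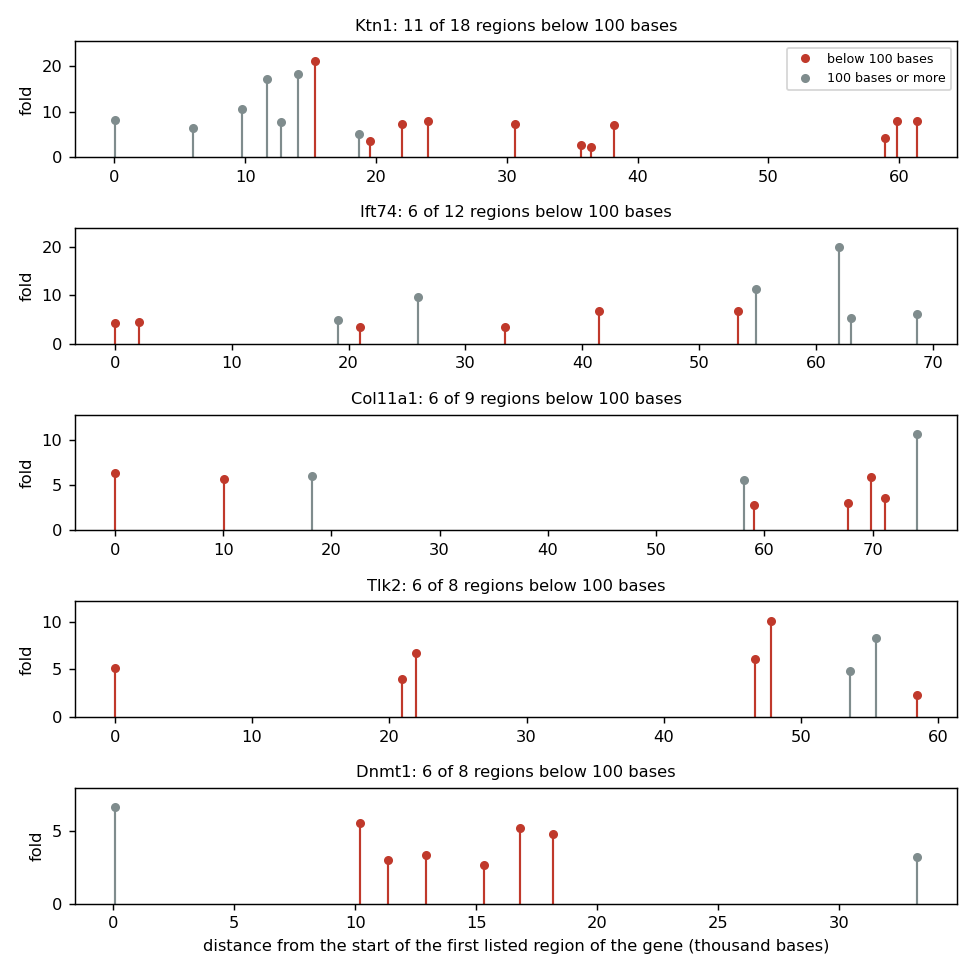
Fold enrichment (vertical axis) of every listed region of Ktn1, Ift74, Col11a1, Tlk2 and Dnmt1, by distance from the start of the gene's first listed region in kilobases, in red below 100 bases and in grey otherwise. The highest value is a short region in Ktn1 (21.14) and Tlk2 (10.09) and a longer one in Ift74 (19.96), Col11a1 (10.71) and Dnmt1 (6.59).

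In 351 genes every listed region was short, and 22 of these had 3 or more. The strongest of the 22 was Kpna3, an importin that carries proteins into the nucleus, with folds of 5.62, 9.4 and 28.96. Ube3c, a ubiquitin ligase gene, had 19.18, 14.62 and 4.73. Amph encodes amphiphysin, a membrane-bending protein of synaptic vesicle endocytosis, and stood at 5.88, 13.15 and 17.28. In each of these 3 genes the highest region was the first or the last of those listed along the chromosome. Dnajc8, a J-domain protein gene, had 4 regions from 4.52 to 17.06, and Psmc1, an ATPase subunit of the proteasome, had 3 from 7.39 to 15.87, the highest in a region of 17 bases.

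Gene lists were set beside the table's 18.5%, as the share of each list's regions that were short, with exact (Clopper-Pearson) 95% intervals that cover counting error and ignore that regions of 1 gene are not independent. A listed gene is one with an enriched region, which says nothing of its RNA level. Of 12 neuron markers, 7 were listed and 4 had a short region, which made up 6 of their 16 regions (37.5%, interval 15.2 to 64.6%). Snap25, a SNARE protein of vesicle fusion, had its highest fold in a short region (16.68 against 14.83), as had Mapt, which encodes tau (16.51 against 11.1), while Map2, a dendritic microtubule protein, did not (9.03 against 14.69). Of other cell types, 1 of 10 astrocyte markers had a short region (Slc4a4, a bicarbonate transporter, at 8.39), 1 of 10 oligodendrocyte markers (Cnp, at 5.59 with a score of 6.96), and 0 of 10 microglial and 0 of 10 vessel and fibroblast markers. Across those lists 3, 1, 2 and 1 genes were listed at all.

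Synaptic genes had short shares near the table's. In presynaptic genes 18 of 88 regions were short (20.5%, interval 12.6 to 30.4%), with 10 of 23 listed genes concerned. Amph stood at 17.28, as given above, and Nrxn2, a presynaptic adhesion gene, at 14.6 against 5.59 for its best longer region. The active-zone genes Erc1, Erc2 and Rims1, chosen after their values were seen, went the other way, with short regions at 4.49, 3.77 and 3.51 and longer ones up to 14.52, 11.69 and 15.76. In postsynaptic genes 10 of 39 regions were short (25.6%, interval 13.0 to 42.1%). Camk2b stood at 13.39, Shank1, a scaffold of the postsynaptic density, at 12.19 and Camk2g at 11.94. Dlg4, which encodes the scaffold PSD-95 and was also chosen after its value was seen, had a single region, of 86 bases, at 11.52. The median fold of these short regions was 8.59, against 5.91 for the longer regions of the list. The order was the opposite in presynaptic genes (6.3 against 7.84), neuron markers (7.555 against 10.64) and ion channels (4.585 against 5.89), and in 9 of the 12 lists with both kinds the short median was the lower. Ion channels had 8 of 48 (16.7%, interval 7.48 to 30.2%), all weak: the calcium channel gene Cacna1a at 5.63, the potassium channel gene Kcnd2 at 4.94 and Cacna2d1 at 4.8, with none past a p of 1e-10.

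In the PI3K-AKT cascade named in the study's title, a kinase pathway of growth and survival, 5 of 36 regions were short (13.9%, interval 4.67 to 29.5%). The study named this pathway on these samples, so the list is not independent evidence. Among them were regions in the adaptor Grb2 (13.73), the transcription factor Creb1 (7.76), and the kinases Gsk3b (5.35) and Akt1 (3.86). For Grb2, Gsk3b and Akt1 that short region was the gene's only entry in the table. Their scores were 279.77, 21.66 and 24.95. Among all regions that carried the PI3K-Akt pathway term in the table, 26 of 119 were short (21.8%), in 19 of 73 genes, with a median fold of 5.45 against 5.96 for the longer ones. Of these 26, 12 lay in the collagen genes Col4a1, Col4a2, Col6a1, Col6a2 and Col6a3. Grb2 was the highest of the 26, followed by Col6a2 at 11.6.

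Nuclear and RNA-related lists had short shares from 6.67% to 22.2%, with overlapping intervals, and differences between lists were not tested. Chromatin regulators had 21 short of 193 regions (10.9%, interval 6.86 to 16.2%). The corepressor Ncor1 (11.82) and the SWI/SNF subunit Smarcc1 (10.43) were highest, each below its best longer region (32.81 and 12.4). In the m6A machinery 2 of 30 regions were short (6.67%, interval 0.818 to 22.1%), both in Mettl14, the partner of the catalytic subunit METTL3. The stronger had 88 bases, a fold of 5.83 and a score of 52.38. Splicing and RNA-binding genes had 26 of 120 (21.7%, interval 14.7 to 30.1%) in 20 of 35 listed genes, among them the helicase gene Ddx46 (19.83), Rbm25 (17.75) and Hnrnpd, a protein gene of mRNA turnover (16.28). Translation factors had 12 of 54 (22.2%, interval 12.0 to 35.6%, including the 5 of Gspt1, some of which may be repeats), with a median fold of 10.205 against 12.745 for longer regions. Eif2s2, a subunit of the factor that brings the initiator tRNA, was at 26.89, Eif4g3, a scaffold of the cap-binding complex, at 19.01 and Eif5b at 18.66. Ribosomal protein genes had 2 of 10, in Rps10 (7.54) and Rps24 (4.15), and have processed copies that leave both uncertain.

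Large scaffold, motor and filament genes, which have many exons, had 48 short of 273 regions (17.6%, interval 13.3 to 22.6%), led by Myo6, Ktn1 and the kinesin Kif21a (18.53). Genes known for a coding sequence in a single exon were a further list. Whether the short share goes with the number of exons was not tested. Of 56 such genes 7 were listed, with 1 region each and 0 of 7 short (exact upper limit 41.0%). Their regions measured 327 bases in the potassium channel gene Kcna6 and from 884 to 3112 bases in the transcription factor genes Cebpb, Sox12, Jund, Cebpa and Bhlhe22 and the heat shock gene Hspa1b. All 7 are longer regions, and their folds, from 6.05 to 8.08, lay above the median of longer regions, 6.02. The lowest fold, in Jund, and the highest, in Bhlhe22, had scores of 5.14 and 7.26, with a p above 0.05. The others had a p below 0.05. Of the 16 lists, 8 had a short share above the table's, and chromatin regulators alone had an interval that ended below 18.5%. That did not hold with a limit of 80 bases, where their share was 8.29% (interval 4.81 to 13.1%) against 9.60% of the table, nor among regions with a p of at most 1e-10, where it was 7.37% (interval 3.01 to 14.6%) against 13.8%. The chromatin list also leaves out Dnmt1 and Tlk2, described above with 6 short among 8 regions each. Its share with these genes was not computed, so the result rests on the list's make-up.

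**Figure D5:**
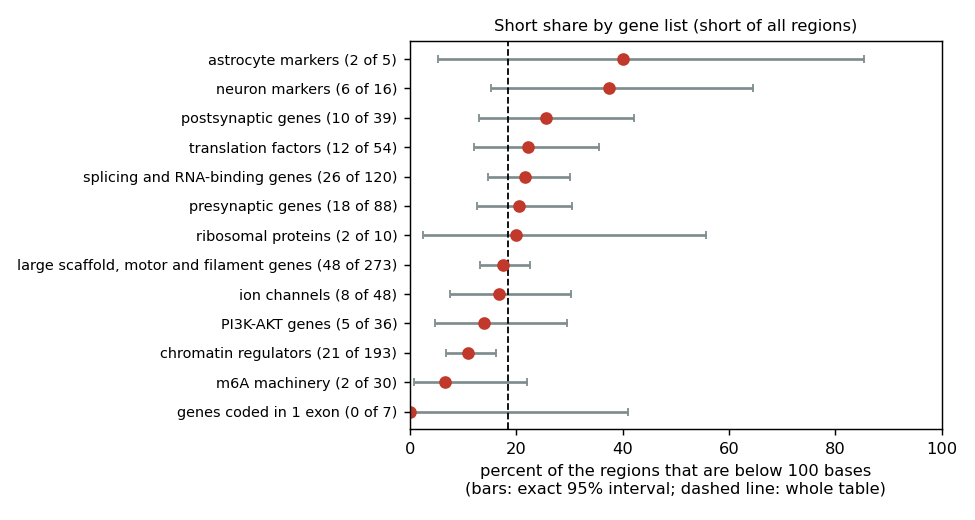
Percent of each list's regions that were below 100 bases (points, with exact 95% intervals as bars) for the lists with 5 or more regions, with the whole-table share dashed. Chromatin regulators, at 10.9%, are the list whose bar ends below the dashed line, which it does not with a limit of 80 bases.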

How the data were processed

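The data were 1 peak table from 1 IP and 1 input library of lead-exposed neurons, grouped by sample titles. Per the labels' protocols, a commercial kit served for the m6A pull-down and the libraries kept strand. Tools in the submitters' processing notes, where no role is given, are cutadapt 1.9.3, STAR and HISAT2 2.0.4. Per the file headers, peak names are those of MACS. The caller's version and limits, the build and the gene models were not given in the sources used here. Fold enrichment was deposited as a linear ratio. P-values were deposited as a score that equals 10 times their −log10, in 2 identical columns. A false discovery rate in percent, also deposited, was 100 in all 8512 regions and was not used.

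Length equalled end minus start in all regions, so starts are printed 1 higher. No regions overlapped. Distance was taken edge to edge in chromosome coordinates, introns included, to the nearest region of the same gene name and chromosome. Names were matched to RefSeq (GRCr8): 7761 regions by symbol, 520 by gene ID or synonym, 231 not. Among short regions, 61 had a provisional name and 8 a gene now on another chromosome.

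The regions and the 16 gene lists were chosen with earlier results of these data known. Genes named are the 10 strongest short regions, the 10 genes with most short regions, the 5 strongest with short regions only, up to 3 per list, the shortest regions, the closest pairs and those at the limit, with provisional names left out of the first 2 sets. Others are said to be chosen after their values were seen, or belong to counts of 5 or fewer. Some genes the rule takes are given only in counts or are not reported here. No test was run, since each group had 1 library. Distances and counts per gene were checked on simulated regions. The software was SciPy 1.17.1, numpy 2.4.6, pandas 2.3.3 and matplotlib 3.10.9 under Python 3.11.15. Alternatives were other length limits, p limits, name filters and distance rules, and 1 added after the data were seen.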

Additional observations from a re-analysis of the deposited data

How the results depend on the processing

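The number of short regions (1575) moved to 817 with a limit of 80 bases, to 2431 with 120 and to 386 under a p limit of 1e-10. The median fold of short regions (5.5) moved to 6.66 under a p limit of 0.05, to 10.43 under 1e-10 and to 5.78 with the highest short region of each gene. The ratio of the short to the longer median fold, 0.914, lay between 0.9 and 0.960 under every alternative but 1: under a p limit of 1e-10 it turned to 1.04. That limit selects by a p that falls with fold. The share of short regions in genes with 3 or more regions (61.1%) moved to 55.9% under a p limit of 0.05 and to 42.2% under 1e-10, where fewer regions per gene remain. The share of longer regions in such genes was not computed under these limits. Other values of the 6 main results stayed within their interval or within 1.5 times (32 of 40), including those with 1 region for each gene name and length, an alternative added after the data were seen. Of 93 list shares, 79 stayed within their interval. Some of these intervals were so wide that few values could fall outside, such as 0 to 84.2% for microglial markers. With limits of 80 and 120 bases the table's own share was 9.60% and 28.6%. A list share that stayed within its interval is therefore not evidence of stability. No paired analysis was possible because each group held 1 library. Without read counts, depth sets no limit that can be stated.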
